A study of Mus musculus with 27 samples.

Results

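The genes described here are 10 members of the transforming growth factor beta (TGF-beta) pathway, measured in immune cells of mice with colitis. They are the ligand gene Tgfb1, the receptor genes Tgfbr1 and Tgfbr2, the signal transducers Smad2 and Smad3, the inhibitory Smad7, the corepressors Ski, Skil and Tgif1, and the transcription factor Runx3. Members were chosen by name: every probe whose gene symbol on the Illumina MouseWG-6 BeadChip equals one of these symbols was taken, which gave 22 of the 45281 probes and 10 of the 30869 symbols. That rule used no measured value, but the members were named with earlier results of these data known. Each gene is described by its brightest probe over the colon arrays, and its other tested probes are named where they went another way in a genotype or cell type comparison.

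The study asked what the methyl-CpG binding protein Mbd2, a reader of methylated DNA, does in cells of the inflamed colon. Wild type (WT) mice were compared with mice lacking Mbd2 in every cell (Mbd2-/-), which were littermates on the C57BL/6 background, housed together where possible, adult, and matched for age and sex. Both genotypes received 2% dextran sodium sulphate (DSS) in their drinking water, which injures the colonic epithelium and causes colitis, so no array measured an untreated colon. Monocytes (CD11b+Ly6C+), macrophages (CD11b+Ly6C-MHC-II+F4/80+) and type 1 conventional dendritic cells (cDC1s, CD11b-CD11c+CD103+) were sorted from the lamina propria. Monocytes and macrophages were each measured on 5 arrays a genotype and cDC1s on 2 WT and 3 Mbd2-/- arrays, and each array held RNA of 1 mouse or a pool of several. The other 2 arrays held CD4 T cells from the spleen, 1 of each genotype, taken 6 weeks after a T cell transfer that induces colitis. The labels do not say whether donor or host mice of that model carried the deletion, and with 1 array a genotype no test was made there.

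TGF-beta is released in a latent form and, once active, binds a complex of the type II receptor (Tgfbr2) and the type I receptor (Tgfbr1). The activated type I receptor phosphorylates Smad2 and Smad3, which enter the nucleus with Smad4 and change transcription, while Smad7 blocks the receptor and Ski, Skil (SnoN) and Tgif1 hold Smad target genes down. In the intestine the pathway is known for restraining inflammation, for the conditioning of monocytes into resident macrophages, and for the CD103+ phenotype of dendritic cells and T cells.

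Signal was found for most of the pathway. Tgfb1, Tgfbr1, Tgfbr2, Smad2, Smad3, Ski, Skil and Tgif1 were above background, at a detection p-value under 0.05, on all 25 colon arrays. The single Smad7 probe was above background on 0 of 25 and the single Runx3 probe on 5 of 25, so no Smad7 level was measured and Runx3 lay near background. All values are log2 intensities after background correction and quantile normalisation, and since probes differ in how well they bind, the level of one gene is not set against that of another.

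Over the colon arrays the mean intensity ran from 172 to 353 and 16024 to 18608 probes were above background. WT cDC1s had higher mean intensity (265 to 292) than Mbd2-/- cDC1s (172 to 228) and more detected probes (17443 to 17635 against 16383 to 16572), with no overlap of the genotypes. Arrays of a group correlated at r = 0.955 to 0.988, and on 25 of 25 colon arrays the most similar other array was of the same cell type. The sorted identities fitted their markers: summed over the list, cDC1 markers stood at 13771 to 15621 in cDC1s against 1100 to 2707 in the other colon arrays, and macrophage markers at 40400 to 47007 in macrophages against 16403 to 20863 in monocytes. Ccr2, a defining monocyte gene, was above background on 1 of 10 monocyte arrays. Epithelial markers were present in all colon groups (4311 to 16433, against 217 and 251 in the T cells). So were stromal markers (1350 to 6979, against 236 and 299 in the T cells), and the part of such cells in the results was not tested. The only Mbd2 probe was above background on 0 of 27 arrays, so the genotype labels could not be checked by it.

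Since Mbd2 binds methylated CG dinucleotides, the promoters of both receptor genes and Smad3, on which most of the results below turn, are printed here with every CG in capitals. Each is the 250 bases before the RefSeq start site on the gene's own strand, 5′ to 3′, in build GRCm38.p6. Tgfbr1 lies at chr4:47352972-47353221 on the plus strand, Tgfbr2 at chr9:116175364-116175613 and Smad3 at chr9:63757995-63758244, both on the minus strand. Tgfbr1 has 2 RefSeq start sites in the table, and the window shown is that of the first.
Tgfbr1: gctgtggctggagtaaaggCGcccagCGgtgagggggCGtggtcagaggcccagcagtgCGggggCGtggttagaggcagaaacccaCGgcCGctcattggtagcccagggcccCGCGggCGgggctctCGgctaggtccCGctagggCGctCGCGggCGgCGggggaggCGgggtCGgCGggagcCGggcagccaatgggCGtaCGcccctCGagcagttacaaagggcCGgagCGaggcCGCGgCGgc
Tgfbr2: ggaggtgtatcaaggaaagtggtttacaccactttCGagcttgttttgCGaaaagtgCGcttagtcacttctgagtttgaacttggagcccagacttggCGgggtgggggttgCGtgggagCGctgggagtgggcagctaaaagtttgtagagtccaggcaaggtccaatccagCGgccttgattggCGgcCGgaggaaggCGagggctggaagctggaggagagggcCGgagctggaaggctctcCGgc
Smad3: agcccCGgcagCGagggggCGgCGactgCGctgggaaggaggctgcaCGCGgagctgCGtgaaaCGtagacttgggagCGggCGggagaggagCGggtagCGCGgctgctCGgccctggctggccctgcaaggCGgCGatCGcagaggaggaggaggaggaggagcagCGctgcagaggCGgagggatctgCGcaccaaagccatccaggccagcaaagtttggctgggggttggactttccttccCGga

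These windows held 29 CG dinucleotides for Tgfbr1, 12 for Tgfbr2 and 22 for Smad3, against a median of 6 over 32851 mouse promoters of 27025 genes. At least as many were found in 6.78%, 33.5% and 14.8% of all promoters. The letters CAGAC, the core that Smad3 and Smad4 bind, read on both strands, occurred in 1 place for Tgfbr2 and in 0 for Tgfbr1 and Smad3, and 42.2% of all promoters held them. The window of the other Tgfbr1 start site, at chr4:47385966-47386215 on the plus strand, held 3 CG dinucleotides, a number reached by 71% of all promoters, and 1 CAGAC. RefSeq promoters were listed for 7 of the 10 members, while Skil, Smad2 and Smad7 had no entry in the table used. The Ski window, at chr4:155222536-155222785 on the minus strand, held 53 CG dinucleotides, a number reached by 0.0365% of all promoters. DNA methylation was not measured on these arrays, and a match of letters is a description, not a binding site.

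**Figure D1:**
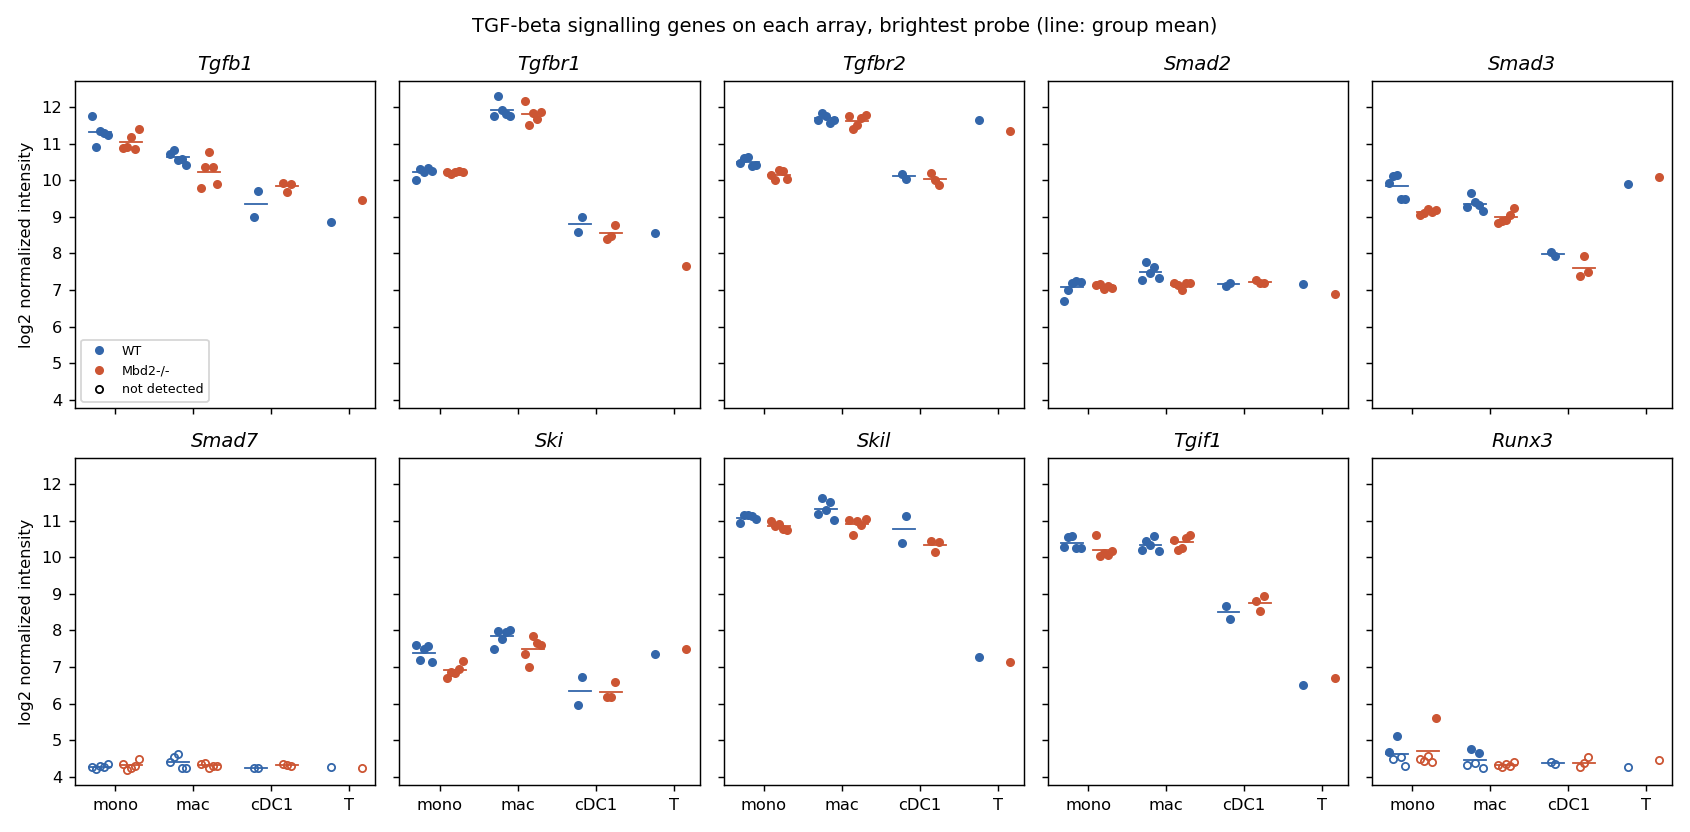
Normalised log2 intensity of the brightest probe of each of the 10 members (vertical axis) on every array, with WT and Mbd2-/- arrays side by side for monocytes, macrophages, cDC1s and splenic CD4 T cells; bars mark group means, hollow points were not above background, T cell values come from normalising all 27 arrays together, and levels are not comparable between genes. Tgfbr1 separates the 3 colon cell types, and Smad3 separates cDC1s from the others.

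The colon cell types were compared first, as the mean over both genotypes, to see where the pathway was expressed. In macrophages against monocytes, 6 of the 9 members tested passed an adjusted p of 0.05, where 34.2% of all probes tested did (18.6% higher and 15.6% lower in macrophages). Tgfbr1, Tgfbr2, Ski and Smad2 were higher in macrophages, and Tgfb1 and Smad3 were lower. The median log2 difference was 0.15 over the members and 0.00 over all 18792 probes. Here and below, a lower value could reflect fewer expressing cells in the sort or less RNA per cell, which cannot be told apart.

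Tgfb1 encodes the main TGF-beta of immune cells. Its log2 intensity in WT monocytes was 11.76, 10.92, 11.33, 11.29 and 11.23, and in Mbd2-/- monocytes 11.20, 10.86, 11.40, 10.87 and 10.91. WT macrophages gave 10.72, 10.84, 10.56, 10.58 and 10.43, and Mbd2-/- macrophages 10.77, 10.37, 9.90, 9.78 and 10.36. Every monocyte array was thus above every macrophage array, by a narrow margin. Macrophages were 1.68-fold lower (log2 difference -0.75, SE 0.13, adjusted p = 5.44e-05). In cDC1s the level was 8.99 and 9.70 in WT and 9.93, 9.69 and 9.91 in Mbd2-/-, below all monocytes and mostly below macrophages. The cDC1s were 2.99-fold lower than monocytes (log2 -1.58, SE 0.16, adjusted p = 9.73e-09) and 1.78-fold lower than macrophages (-0.83, SE 0.16, adjusted p = 0.000111). The latter difference rested on WT: in Mbd2-/- arrays alone it was -0.39 (adjusted p = 0.129).

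The type I receptor gene Tgfbr1 had the widest range of the members. In monocytes it stood at 10.01, 10.30, 10.24, 10.33 and 10.24 in WT and at 10.22, 10.27, 10.23, 10.23 and 10.16 in Mbd2-/-. In macrophages it stood at 11.77, 12.31, 11.92, 11.81 and 11.76 in WT and at 11.83, 11.67, 11.87, 12.16 and 11.50 in Mbd2-/-. In cDC1s it stood at 8.59 and 9.01 in WT and at 8.39, 8.47 and 8.79 in Mbd2-/-. The 3 cell types did not overlap at all, in the order macrophages, monocytes, cDC1s. Macrophages exceeded monocytes 3.11-fold (log2 1.64, SE 0.09, adjusted p = 1.47e-12), and cDC1s were 9.11-fold below macrophages (-3.19, SE 0.11, adjusted p = 6.16e-17) and 2.93-fold below monocytes (-1.55, SE 0.11, adjusted p = 2.40e-11). A dimmer Tgfbr1 probe gave the same directions, with log2 differences of 1.43, -2.73 and -1.30 in that order.

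Tgfbr2, the ligand-binding type II receptor, was also highest in macrophages. Macrophages ran from 11.40 to 11.84, monocytes from 10.00 to 10.65 and cDC1s from 9.88 to 10.19, so that macrophages stood apart and the lower pair overlapped. Macrophages were 2.53-fold above monocytes (log2 1.34, SE 0.07, adjusted p = 6.03e-13) and cDC1s 3.02-fold below macrophages (-1.59, SE 0.08, adjusted p = 1.19e-13). Between cDC1s and monocytes the difference was small (-0.26, SE 0.08, adjusted p = 0.0143). It was -0.12 in Mbd2-/- arrays alone (adjusted p = 0.400), and the adjusted p became 0.0774 without the WT cDC1 array 26. The second probe of the gene differed less between macrophages and monocytes (0.36, adjusted p = 0.0321), and another differed by 0.02 between cDC1s and macrophages (adjusted p = 0.924).

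The receptor-activated Smads did not move together. Smad3 in WT monocytes was 9.92, 10.13, 10.14, 9.49 and 9.48, and in Mbd2-/- monocytes 9.22, 9.14, 9.20, 9.05 and 9.11. In macrophages it was 9.27, 9.64, 9.40, 9.33 and 9.16 in WT and 8.92, 9.05, 9.25, 8.82 and 8.89 in Mbd2-/-. The cDC1s gave 8.03 and 7.93 in WT and 7.38, 7.92 and 7.50 in Mbd2-/-, the lowest values of all colon arrays. Against monocytes cDC1s were 3.24-fold lower (log2 -1.70, SE 0.12, adjusted p = 2.71e-11), and against macrophages 2.61-fold lower (-1.38, SE 0.12, adjusted p = 1.09e-09). Macrophages differed from monocytes by -0.31 (SE 0.10, adjusted p = 0.0139), by -0.47 in WT arrays alone and by -0.16 in Mbd2-/- arrays alone (adjusted p = 0.440). Smad2 lay between 6.70 and 7.75 on all colon arrays. It was higher in macrophages by 0.23 (SE 0.07, adjusted p = 0.0167), by 0.42 in WT arrays alone and by 0.04 in Mbd2-/- arrays alone (adjusted p = 0.821), and cDC1s did not pass the test against either cell type (0.10 and -0.13).

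Among the corepressors, Ski was highest in macrophages (6.99 to 8.01), lower in monocytes (6.71 to 7.60) and lowest in cDC1s (5.97 to 6.72). The macrophage and monocyte ranges overlapped, and a mean log2 difference of 0.52 (SE 0.12, adjusted p = 0.00107) separated them. The cDC1s were 2.53-fold below macrophages (-1.34, adjusted p = 3.67e-08) and 1.77-fold below monocytes (-0.82, adjusted p = 3.94e-05). Tgif1, a homeobox corepressor, had overlapping ranges in monocytes (10.04 to 10.62) and macrophages (10.17 to 10.62), with a log2 difference of 0.08 and a 95% interval from -0.10 to 0.27. In cDC1s it ran from 8.32 to 8.94, 3.18-fold below monocytes (-1.67, SE 0.11, adjusted p = 1.01e-11) and 3.37-fold below macrophages (-1.75, SE 0.11, adjusted p = 4.59e-12). The other Tgif1 probes, dimmer and above background on 17 and 11 of 25 arrays, did not show this: cDC1s differed from monocytes by 0.43 (adjusted p = 0.473) and 0.10 (adjusted p = 0.827) on them, and from macrophages by 0.29 (adjusted p = 0.644) on the first.

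Skil, which encodes SnoN, varied least of the corepressors across cell types. Macrophages and monocytes differed by 0.15 (95% interval -0.05 to 0.34, adjusted p = 0.250). The cDC1s were lower than macrophages (-0.57, SE 0.11, adjusted p = 0.000269) and lower than monocytes (-0.42, SE 0.11, adjusted p = 0.00439). The second of these rested on few arrays, since it was -0.23 (adjusted p = 0.136) without the WT cDC1 array 23 and -0.32 (adjusted p = 0.160) in WT arrays alone. Runx3, the partner of Smads in lymphocytes, lay between 4.24 and 5.62 in the colon and passed no cell type test.

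In cDC1s, then, 7 of the 9 members tested were lower than in monocytes, and 7 of 9 were lower than in macrophages. Of all probes, 43.4% passed in cDC1s against monocytes (20.0% lower) and 42.4% in cDC1s against macrophages (19.8% lower). The median log2 difference over the members was -0.82 against monocytes and -1.34 against macrophages, where that over all probes was 0.00 in both. These 3 contrasts share arrays and are not independent. T cell markers summed to 697 and 2921 on the WT cDC1 arrays and to 486 to 2452 on the Mbd2-/- cDC1 arrays, against 322 to 682 on the monocyte and macrophage arrays, and their part in the result was not tested.

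**Figure D2:**
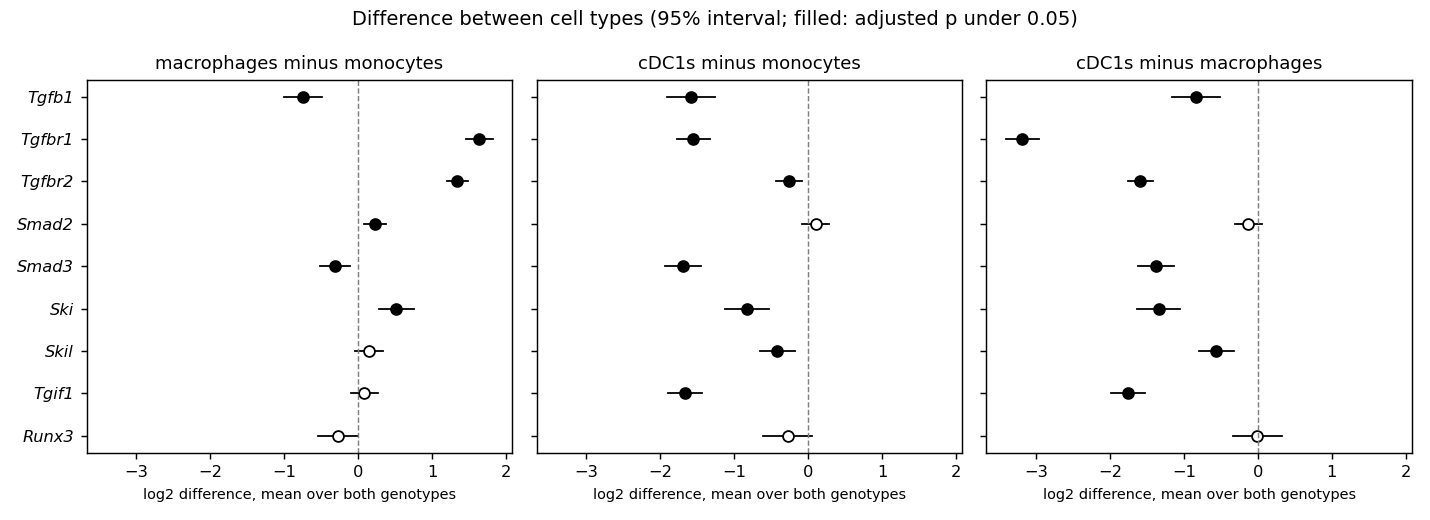
Log2 difference between colon cell types (horizontal axis) for the brightest probe of the 9 members tested, with 95% confidence intervals from the limma model; each panel is one pair of cell types, and filled points passed an adjusted p of 0.05. Both receptor genes lie to the right for macrophages against monocytes, and most members lie to the left in the comparisons of cDC1s.

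The order of the arrays in the table bears on these contrasts. A chip of this type holds 6 arrays and no label names the chip, and in sets of 6 by position the monocyte arrays never shared a set with macrophage arrays. The difference between these cell types therefore cannot be told apart from the set. The cDC1 arrays, except the Mbd2-/- array 30, did share sets with other colon arrays of their genotype. Within such sets Tgfbr1 differed between WT cDC1s and WT monocytes by -1.60 and -1.28, and between Mbd2-/- cDC1s and Mbd2-/- macrophages by -3.44 and -3.32. For Smad3 these values were -2.04 and -1.55, and -1.48 and -1.15. Tgfb1 differed by -2.35 and -1.56 from WT monocytes and by -0.13 and -0.65 from Mbd2-/- macrophages, while Skil gave -0.70 and 0.05 against WT monocytes.

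The effect of Mbd2 loss was then tested within each cell type. In monocytes 1 of the 8 members tested passed an adjusted p of 0.05, Smad3, where 1.80% of all 16190 probes passed (0.945% lower in Mbd2-/-). The differences were below 0 for 7 of the 8 members, with a median of -0.25 against -0.02 over all probes, and 3 had an unadjusted p under 0.05, as 13.7% of all probes had. No member passed with an added minimum of 1 on the log2 scale, which 0.426% of probes did.

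Smad3 was lower in every Mbd2-/- monocyte array (9.05 to 9.22) than in any WT monocyte array (9.48 to 10.14). WT monocytes averaged 9.83 ± 0.33 and Mbd2-/- monocytes 9.14 ± 0.07 (SD, n = 5 arrays each), a 1.61-fold lower level (log2 difference -0.69, SE 0.14, 95% interval -0.97 to -0.40, adjusted p = 0.00865). Genotypes that do not overlap were found for 4.85% of all probes. The second Smad3 probe, which is dimmer and, unlike the brighter one, is annotated to a RefSeq transcript, gave 8.01, 8.55, 8.75, 8.36 and 8.30 in WT and 7.25, 7.48, 7.88, 7.62 and 8.20 in Mbd2-/-. On it the arrays overlapped, and the difference was of similar size with a higher adjusted p (-0.71, SE 0.20, adjusted p = 0.0764). The brighter probe passed whichever of the 10 arrays was left out, with differences from -0.78 to -0.61 and adjusted p from 0.00294 to 0.0392.

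The size of the Smad3 difference in monocytes varied between the sets of 6. In the first set the 3 WT arrays read 9.92, 10.13 and 10.14 against 9.05 and 9.11 in Mbd2-/-, a difference of -0.98. In the second set the 2 WT arrays read 9.49 and 9.48 against 9.22, 9.14 and 9.20, a difference of -0.30. Mbd2-/- was lower in both, and with the set as a block in the model the difference was -0.64 (adjusted p = 0.0177).

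**Figure D3:**
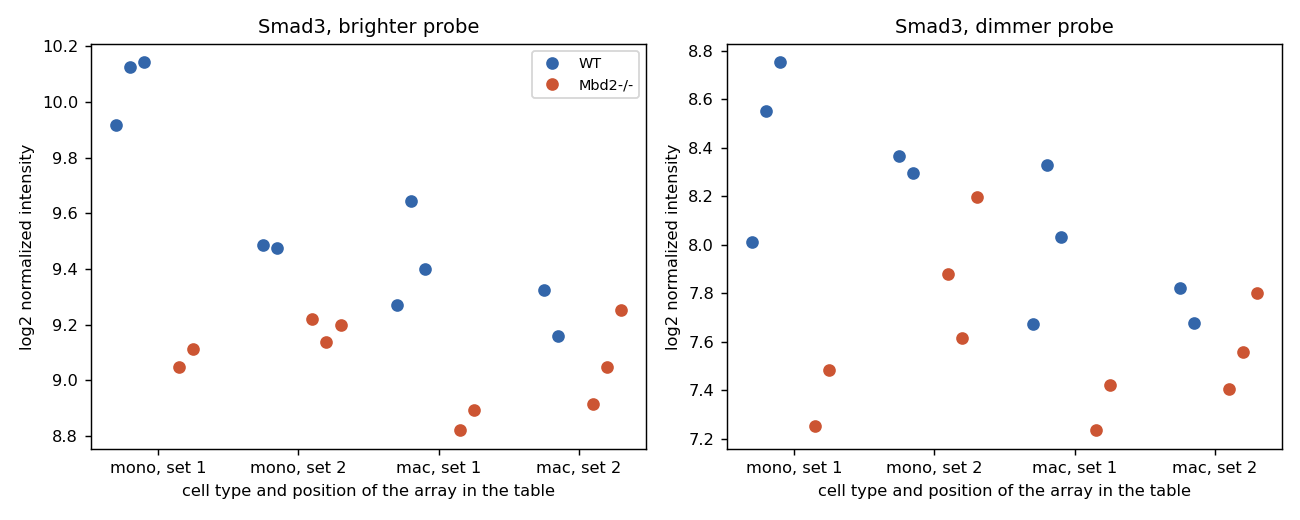
Normalised log2 intensity (vertical axis) of the brighter Smad3 probe (left) and the dimmer one (right) on the monocyte and macrophage arrays, split by the position of the array in the table in sets of 6 (horizontal axis) and coloured by genotype. On the brighter probe Mbd2-/- monocytes lie below WT monocytes in both sets, with mean differences of -0.98 and -0.30.

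Tgfbr2 came next in monocytes. It read 10.46, 10.62, 10.65, 10.39 and 10.41 in WT and 10.28, 10.27, 10.03, 10.15 and 10.00 in Mbd2-/-, again with no overlap. The difference of -0.36 (SE 0.10, 95% interval -0.56 to -0.16) had an adjusted p of 0.0599 and so did not pass, although it did without the WT array 4 (adjusted p = 0.0496). A dim second probe differed by 0.23 (adjusted p = 0.618), and the difference of the brighter probe was -0.50 and -0.21 within the sets. Ski differed by -0.49 (SE 0.16, adjusted p = 0.138), Tgfb1 by -0.26 (adjusted p = 0.560), Skil by -0.23 (adjusted p = 0.465) and Tgif1 by -0.18 (adjusted p = 0.568), with its dimmer probes at 0.29 (adjusted p = 0.863) and 0.25 (adjusted p = 0.823). Tgfbr1 differed by -0.01 (95% interval -0.26 to 0.25) and Smad2 by 0.03 (95% interval -0.18 to 0.25). Among marker genes of other cells, Cd79b, 1 of 4 B and plasma cell genes tested, was lower in Mbd2-/- monocytes (-1.07, adjusted p = 0.00928). Mrc1 was the 1 of 10 macrophage genes to pass, and was lower (-0.74, adjusted p = 0.0478), while the median over those 10 was 0.11. Without passing, Cx3cr1 (-0.66) and Cd163 (-0.54) also read lower, and C1qa (0.51) and Mertk (0.49) read higher. The summed B and plasma cell markers were 1414 to 1873 in WT and 884 to 1478 in Mbd2-/-, and their part in the Smad3 result was not tested.

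In macrophages 1 of the 8 members tested passed, Smad2, where 5.66% of all 16834 probes did (2.56% lower in Mbd2-/-). Smad2 read 7.27, 7.75, 7.47, 7.61 and 7.33 in WT and 6.99, 7.20, 7.18, 7.18 and 7.15 in Mbd2-/-. Each Mbd2-/- array was below each WT array, as for 5.28% of all probes in either direction. Mbd2-/- macrophages were 1.27-fold lower (log2 difference -0.35, SE 0.10, 95% interval -0.56 to -0.13, adjusted p = 0.0497). This call lay at the threshold: it was kept in 2 of the 10 fits that left out 1 array, those without WT array 11 or WT array 15, with adjusted p from 0.0312 to 0.154 over the 10. Within the sets of 6 the difference was -0.34 and -0.35.

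Most other members also read lower in Mbd2-/- macrophages without passing the test. Skil, at 11.02 to 11.63 in WT and 10.60 to 11.06 in Mbd2-/-, differed by -0.42 (SE 0.13, adjusted p = 0.0618) and passed without WT array 15 (adjusted p = 0.0264). Smad3 differed by -0.37 (SE 0.14, adjusted p = 0.101), with means of 9.36 ± 0.18 and 8.99 ± 0.17 (SD, n = 5 each), and its second probe by -0.42 (adjusted p = 0.206). Tgfb1 differed by -0.39 (adjusted p = 0.188) and Ski by -0.35 (adjusted p = 0.195). The receptor genes differed less, Tgfbr1 by -0.11 (95% interval -0.37 to 0.15) and Tgfbr2 by -0.06 (95% interval -0.26 to 0.14), with a dim Tgfbr2 probe at 0.48 (adjusted p = 0.110) and a dim Tgfbr1 probe at 0.12 (adjusted p = 0.835). Tgif1 differed by 0.07 (95% interval -0.20 to 0.33) on its brightest probe and by 0.88 and 0.75 on its dimmer ones (adjusted p = 0.298 and 0.206). In all, 7 of the 8 differences were below 0, with a median of -0.35 against -0.07 over all probes, and 5 of 8 had an unadjusted p under 0.05, as 23.7% of all probes had.

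Markers of other cells moved between the macrophage groups too. Of 4 monocyte genes tested, Ly6c1 (0.91, adjusted p = 0.0484) and Plac8 (0.45, adjusted p = 0.0389) were higher in Mbd2-/-, while Vcan read -0.27 (adjusted p = 0.381). Mertk was the 1 of 10 macrophage genes to pass, and was higher (0.88, adjusted p = 0.00851), with a median of 0.07 over the 10. The eosinophil gene Prg2 was higher (0.91, adjusted p = 0.0204), and Cd79b (-0.76, adjusted p = 0.0421) and the endothelial gene Vwf (-0.96, adjusted p = 0.0148) were lower. The summed monocyte markers were 3768 to 6378 in WT and 5396 to 7189 in Mbd2-/-. The part of these cells in the Smad2 result was not tested.

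In cDC1s 0 of the 8 members passed by limma, where 6.61% of all 17838 probes did, and 1 had an unadjusted p under 0.05, as 24.2% of probes had. The count over all probes, 1179, was 0 by limma when the 5 cDC1 arrays were fitted alone and 73 with array weights. The member with an unadjusted p under 0.05 was Skil, at 10.39 and 11.14 in WT and at 10.44, 10.15 and 10.43 in Mbd2-/-. The WT arrays were far apart, and the difference of -0.43 (SE 0.19, adjusted p = 0.170) became -0.80 (adjusted p = 0.0367) without the lower of them, array 23, which left 1 WT array assumed to vary like the other groups. The second Skil probe, above background on 25 of 25 arrays, went the other way, at 8.49 and 9.22 in WT and 8.52, 8.96 and 9.61 in Mbd2-/- (0.17, SE 0.24, adjusted p = 0.709). Tgfb1 was the member that read highest in Mbd2-/- cDC1s relative to WT (0.50, SE 0.26, 95% interval -0.03 to 1.03, adjusted p = 0.241). Smad3 differed by -0.38 (SE 0.20, 95% interval -0.79 to 0.03, adjusted p = 0.246) with no overlap of the arrays, a state that 31.8% of all probes shared with only 2 and 3 arrays. Its second probe differed by 0.04 (adjusted p = 0.953).

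The remaining members of the cDC1 comparison differed by 0.26 (Tgif1), -0.25 (Tgfbr1), -0.09 (Tgfbr2), 0.07 (Smad2) and -0.03 (Ski). A dim Tgif1 probe differed by -1.40 (adjusted p = 0.251) and a dim Tgfbr1 probe by 0.13 (adjusted p = 0.877). The median was -0.06 against 0.03 over all probes. In this cell type the genotypes lay in different sets of 6, so genotype and set cannot be told apart, and the WT arrays were also the brighter ones. The eosinophil gene Prg2 (1.27, adjusted p = 0.0198) and the neutrophil gene Ltf (1.07, adjusted p = 0.0351) were higher in Mbd2-/- cDC1s. The other tested genes of these lists did not pass. Among them Ear2 read 0.27 and Ccr3 -0.15 for eosinophils, and Retnlg 0.84 and Camp -0.67 for neutrophils. C1qb was the 1 of 10 macrophage genes to pass, and was also higher in Mbd2-/- cDC1s (0.93, adjusted p = 0.0150). All 10 read higher, from 0.11 (Mertk) to 1.03 (C1qa). The summed macrophage markers were 2482 to 2592 in WT and 2857 to 5361 in Mbd2-/-. No stromal gene passed, and these ran from -1.47 (Lum) to 0.17 (Pdgfrb). The part of these cells in the differences was not tested.

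**Figure D4:**
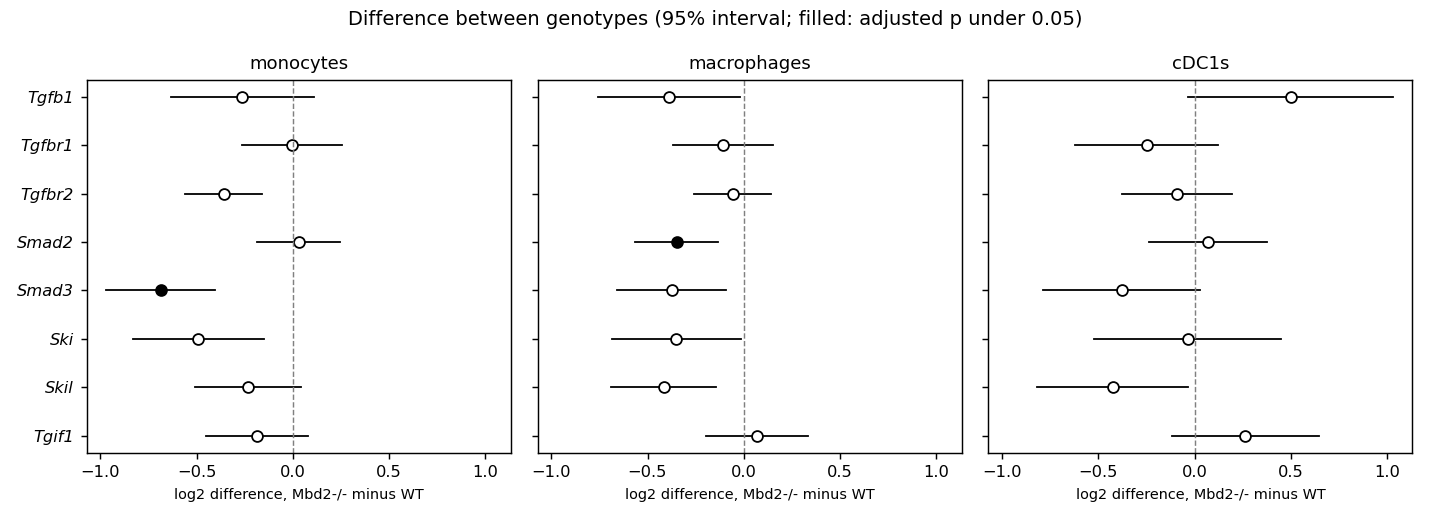
Log2 difference between Mbd2-/- and WT (horizontal axis) for the brightest probe of the 8 members tested in monocytes, macrophages and cDC1s, with 95% confidence intervals from the limma model. Filled points, Smad3 in monocytes (-0.69) and Smad2 in macrophages (-0.35), passed an adjusted p of 0.05.

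Whether a genotype effect differed between cell types was tested as an interaction. Of the 8 members, 0 passed by limma in any of the 3 pairs of cell types, where 0.0287% of probes passed between macrophages and monocytes, 1.14% between cDC1s and monocytes and 8.74% between cDC1s and macrophages. At an unadjusted p under 0.05 there were 2, 1 and 2 members, beside 7.18%, 18.3% and 26.0% of all probes. Tgfb1 had the smallest adjusted p: its effect was higher in cDC1s than in macrophages by 0.89 (SE 0.31, adjusted p = 0.0734), and it passed without the WT cDC1 array 26 (1.24, adjusted p = 0.0212) or without the Mbd2-/- macrophage array 16 (1.02, adjusted p = 0.0359). For Smad3 the effect in macrophages was above that in monocytes by 0.31 (95% interval -0.09 to 0.71, adjusted p = 0.764), so its lower level in Mbd2-/- was not shown to be particular to monocytes. For Smad2 the effect in macrophages was below that in monocytes by a difference of -0.38 (95% interval -0.68 to -0.08, adjusted p = 0.643).

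The splenic CD4 T cells give 1 value a genotype and no test. In values from normalising all 27 arrays together, the T cells read 7.26 (WT) and 7.15 (Mbd2-/-) for Skil and 6.51 and 6.71 for Tgif1, below every colon array (10.11 to 11.59 for Skil and 8.30 to 10.58 for Tgif1). Tgfb1, at 8.87 and 9.47, was below all colon monocytes (10.81 to 11.71) and macrophages (9.74 to 10.79). Tgfbr1 read 8.56 in WT, within the range of cDC1s (8.37 to 8.98), and 7.66 in Mbd2-/-, below it. Tgfbr2, at 11.65 and 11.35, reached the level of macrophages (11.35 to 11.79). Smad3 read 9.90 and 10.09, within the range of monocytes (9.02 to 10.10) and above macrophages (8.79 to 9.61). Smad2 (7.17 and 6.90) and Ski (7.35 and 7.50) lay within the colon ranges, and Smad7 and Runx3 were not above background. Tissue and colitis model differ between these arrays and the colon arrays, and neutrophil markers summed to 7930 on the WT T cell array against 1249 on the Mbd2-/- one.

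The wider pathway was read from a list of 69 further genes in 8 classes, of which 66 had a probe. By genotype, 0 genes were higher and 1 of 57 lower in Mbd2-/- monocytes, 0 higher and 4 of 55 lower in macrophages, and 0 higher and 2 of 55 lower in cDC1s. Of all probes, 0.852%, 3.09% and 3.40% were higher in these comparisons and 0.945%, 2.56% and 3.21% lower. The medians over the list were -0.08, -0.09 and -0.09, beside -0.02, -0.07 and 0.03 over all probes. The gene that was lower in monocytes was Zeb1, a zinc finger repressor that binds Smads (-0.56, adjusted p = 0.0455). Zeb1 was also lower in macrophages (-0.52, adjusted p = 0.0384).

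In macrophages the other genes were Itgb7, the integrin chain that pairs with CD103 (-0.79, SE 0.16, adjusted p = 0.00690), Id1, a Smad-responsive inhibitor of helix-loop-helix factors (-0.65, adjusted p = 0.0426), and Trim33, which binds activated Smads and ubiquitinates Smad4 (-0.49, adjusted p = 0.0468). In cDC1s they were the coactivator Ep300 (-1.27, SE 0.25, adjusted p = 0.00635) and Junb, an AP-1 factor induced by TGF-beta (-0.64, adjusted p = 0.0310). The genotype effect was lower in cDC1s than in macrophages for Ep300 (-1.62, adjusted p = 0.00632). The same held for Tab2, an adaptor of the kinase Tak1 (-1.02, adjusted p = 0.0337). Of 56 list genes, 0 were higher and 2 lower in this interaction, where 4.22% and 4.52% of all probes were. In cDC1s the genotypes lay in different sets of arrays by position, so genotype and set cannot be told apart here. Over all probes, the 1179 genotype calls in cDC1s became 0 with cDC1s fitted alone and 73 with array weights. The 1669 calls of the interaction became 83 with array weights. Itgae, which encodes CD103 and was itself used to sort the cDC1s, differed by -0.12 in cDC1s (adjusted p = 0.885), -0.46 in macrophages (adjusted p = 0.310) and -0.45 in monocytes (adjusted p = 0.492). The paper, in its own array analysis, reported lower Itgae in Mbd2-/- cDC1s. It also reported a small reduction of CD103 protein on their surface, which arrays do not measure. Only the brightest Itgae probe was read here, and the reason for the difference from the paper was not tested.

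Between cell types, 16 of 57 list genes were higher and 5 lower in macrophages than in monocytes. In cDC1s 13 of 57 were higher and 21 lower than in monocytes, and 12 of 58 were higher and 22 lower than in macrophages. Of all probes, 18.6%, 23.4% and 22.6% were higher in these comparisons and 15.6%, 20.0% and 19.8% lower. Medians over the list were 0.03, -0.19 and -0.23.

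For the 3 members whose group means ranged most widely, the genes with the most similar profile over the 25 colon arrays were sought among 11229 probes, as a description only, since arrays of a cell type share most of their profile. The Tgfbr1 pattern was nearest to 6720458D17Rik (Pearson r = 0.983), Axl, a receptor for the uptake of dying cells (0.978), 6330414G02Rik, Pld3 and Lrp12 (0.976 each). Smad3 was nearest to Tnfsf14, a cytokine of the tumour necrosis factor family (0.959), Igf1r, the receptor of insulin-like growth factor (0.952), 5031436O03Rik (0.949), Arrdc3 and Snx18 (0.948 each). Tgfb1 was nearest to the kinase gene Mapkapk2 and the NF-kappaB cofactor Bcl3 (0.926 each), Sepx1 (0.923), Emp3 (0.920) and Med15 (0.919).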

How the data were processed

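RNA of 25 colon samples and 2 T cell samples was hybridised to Illumina MouseWG-6 arrays. The authors deposited raw intensities from GenomeStudio, with neither normalisation nor background subtraction, each the average over a probe's beads. Beside each intensity the deposited file gives an unadjusted detection p-value against 936 negative control probes. The submitters' processing notes name lumi and limma, with no settings. A further 3 columns of array signal match no sample and were not used. The paper and the deposited record differ in the number of mice pooled per array, and where pools are not separate animals the p-values measure only the spread between these arrays, which may be technical.

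Normexp with the negative controls (offset 16) removed background, and quantile normalisation on the log2 scale was done over the 25 colon samples, or over all 27 for the T cells and the marker sums. A limma model (lmFit, contrasts.fit, eBayes; limma 3.58.1 and R 4.3.3, with version 1.17.8 of data.table) was fitted to every probe over 6 groups of genotype and cell type. Tests were two-sided, with Benjamini-Hochberg adjustment within each comparison over all probes tested, at 0.05. Probes entered a comparison when detected (p under 0.05) on as many arrays as its smaller genotype group has, or more. No test of gene sets was made. The fit was tested on simulated data. These had independent noise and, for each probe, the same spread in all groups. Unequal spread between groups and differences between sets of arrays were not covered.

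The members and gene lists were chosen with earlier results of these data known. All 10 members were named, each by its brightest probe. Pathway genes were named where their brightest probe passed in a genotype comparison, and the 5 genes most like a member were named for the 3 members with the widest range of group means. Alternatives were other background corrections, normalisations, filters, thresholds, weights, probe rules and sets of arrays, the array's place in the file in sets of 6 as a block, and each array left out in turn. The number of arrays, which was 2 for WT cDC1s, is a limit on the precision.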

Additional observations from a re-analysis of the deposited data

Results flagged for a closer look

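Dixon's test looked for a single array far from the rest of its group, at the 95% level, in the 40 groups of 5 arrays given by the 10 members in monocytes and macrophages of each genotype. It marked 4 of the 40, where chance marks about 1 in 20 groups. Each value below is the gap to the nearest array as a share of the group's whole range. Tgif1 in Mbd2-/- monocytes had a gap of 0.756, with array 9 at 10.62 against 10.18 for the next. Runx3 in Mbd2-/- monocytes had a gap of 0.847, with array 8 at 5.62 against 4.58, the only array of that group on which the probe was above background. Tgfbr1 in WT macrophages had a gap of 0.717, with array 12 at 12.31 against 11.92. Smad2 in Mbd2-/- macrophages had a gap of 0.739, with array 16, the lowest, at 6.99 against 7.15.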

How the results depend on the processing

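No paired analysis was possible because the array numbers in the labels are never shared between groups. Of 2019 values of single members under the alternatives, 1902 kept their direction and side of the threshold, 38 lost and 25 gained a call, and 54 changed sign, 1 of them with a call. The cause of these changes was not tested. For monocytes (1 member passed) the count became 2 without background correction, with an offset of 50, with cyclic loess or with the stricter detection filter, 3 with array weights or unadjusted p, and 0 with a minimum log2 difference of 1. For macrophages (1 passed) it became 2 without background correction, 5 with unadjusted p, and 0 with median scaling, cyclic loess, all 27 arrays, no filter, an adjusted p of 0.01, a minimum of 1, array weights, macrophages alone or the sets of 6 as a block. For cDC1s (0 passed) it became 1 and for the interactions (0 passed) 3 with unadjusted p. With a minimum of 1 it became 2 for macrophages against monocytes (6 passed) and 4 for cDC1s against monocytes (7 passed). Leaving out 1 array gave 1 to 2 in monocytes, 0 to 2 in macrophages, 0 to 1 in cDC1s, 0 to 1 for the interactions, 6 to 6, 6 to 7 and 7 to 7 for the cell types. Smad3 in monocytes passed under 12 of 13 alternatives, Tgfbr2 in monocytes under 6 and Smad2 in macrophages under 4. Median scaling moved the median of all probes to 0.22 for genotype in cDC1s and to 0.35 and 0.39 for cDC1s against monocytes and macrophages, and the share of higher calls from 51.4% to 74.6%, 53.9% to 74.8% and 53.2% to 77.7% (47.4% to 58.5% in monocytes; 54.7% to 65% in macrophages with cyclic loess). The 7 members lower in each cDC1 comparison stayed lower in it. Over all probes the genotype calls (291 in monocytes, 952 in macrophages and 1179 in cDC1s) became 321, 77 and 0 with each cell type fitted alone, 1085, 680 and 73 with array weights, 172, 402 and 852 with no filter, 282, 707 and 684 with median scaling, 98, 141 and 218 at an adjusted p of 0.01, and 69, 251 and 334 with a minimum of 1.

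Signs turned under median scaling for Tgfbr1 in monocytes (0.016), Tgfbr2 in cDC1s (0.0025), Skil (-0.021) and Tgif1 (-0.032) in macrophages against monocytes, Runx3 in cDC1s against monocytes (0.20) and against macrophages (0.51, adjusted p = 0.0291), Smad2 in the cDC1 and monocyte interaction (-0.022), and Tgfbr2 (0.083) and Skil (0.15) in the cDC1 and macrophage interaction. They turned with cyclic loess for Smad2 in cDC1s (-0.011) and in the cDC1 and monocyte interaction (-0.054) and for Runx3 in cDC1s against macrophages (0.010, and 0.0053 without background correction). The Smad3 interaction of cDC1s and macrophages became 0.052 without background correction, 0.029 with an offset of 50 and 0.00045 with a random block. Tgfbr2 in macrophages became 0.00077 with array weights, Tgif1 in macrophages against monocytes -0.042 in WT alone, and Smad2 in cDC1s against macrophages 0.080 in Mbd2-/- alone. With 1 array left out, ranges that crossed 0 were -0.058 to 0.022 (Tgfbr1) and -0.060 to 0.075 (Smad2) in monocytes, -0.093 to 0.0016 for Tgfbr2 in macrophages, -0.41 to 0.34 for Ski in cDC1s, -0.042 to 0.026 for Runx3 in cDC1s against macrophages, -0.0047 to 0.13 (Smad2) and -0.57 to 0.18 (Skil) in the cDC1 and monocyte interaction, and, in the cDC1 and macrophage interaction, -0.35 to 0.069 (Tgfbr1), -0.12 to 0.040 (Tgfbr2), -0.16 to 0.11 (Smad3), -0.061 to 0.69 (Ski) and -0.38 to 0.36 (Skil).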
